A study of Mus musculus with 6 samples.

Results

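T cell receptor segment transcripts were examined in group 2 innate lymphoid cells (ILC2s), lymphocytes that carry no antigen receptor on their surface. The members were all rows of the deposited count table whose gene type was a T cell receptor constant (C), variable (V), joining (J) or diversity (D) segment, pseudogenes included, and a row is 1 annotated gene. They numbered 270 of the 53278 rows, of which 191 lay in the alpha locus (Tra), 53 in the beta locus (Trb), 15 in the gamma locus (Trg) and 11 in the delta locus (Trd). ILC2s were sorted from visceral adipose tissue of 8-week-old C57BL/6 mice that had received 3 intraperitoneal injections of 1 µg recombinant mouse IL-33, so both groups came from IL-33-treated animals. The cells were then cultured with 10 ng/mL IL-2, 10 ng/mL IL-7 and either DTA-1 (5 µg/mL), an agonistic antibody to the costimulatory receptor GITR, or an isotype control antibody. The sample labels and the methods give 48 h of culture, while the text of the results gives a shorter time. Each group had 3 libraries made from 10 ng of RNA. The sort took cells that lacked CD3ε, TCRγδ and other lineage proteins and that carried CD45, ST2 and CD117. No source says whether the libraries came from separate animals or cultures, so the p-values below measure only the spread between these libraries, which may be technical.

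The 4 loci encode the chains of the αβ and γδ T cell receptors. During T cell development the RAG recombinase joins 1 V, in Trb and Trd also a D, and 1 J segment, and the joined segment is spliced to a downstream C region. C regions can also be transcribed from an unrearranged locus, as germline transcripts that carry no V segment. The Trd segments lie within the Tra locus, and the mouse Trg locus is made of 4 cassettes, each with its own J and C segment. ILC2s arise from lymphoid progenitors that share several transcription factors, such as GATA3 and BCL11B, with T cells.

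The segments that carried most of the counts are close copies of each other, and their sequences show where a read can and cannot tell them apart. The first 160 bases of the first coding exon of the 4 gamma C regions are printed 5′ to 3′ on the transcript strand from GENCODE mouse release M21 (GRCm38), with capitals where a base differs from Tcrg-C1. On chromosome 13, the stretches are 19214103 to 19214262 (plus strand) for Tcrg-C1, 19307392 to 19307551 (minus strand) for Tcrg-C2, 19260885 to 19261044 (plus strand) for Tcrg-C3 and 19344558 to 19344717 (plus strand) for Tcrg-C4.
Tcrg-C1: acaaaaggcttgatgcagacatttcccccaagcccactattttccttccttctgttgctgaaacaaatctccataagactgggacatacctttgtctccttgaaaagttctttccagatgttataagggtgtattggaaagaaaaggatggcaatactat
Tcrg-C2: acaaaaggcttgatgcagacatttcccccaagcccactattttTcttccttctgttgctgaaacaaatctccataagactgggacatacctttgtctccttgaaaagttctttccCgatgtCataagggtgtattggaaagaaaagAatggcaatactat
Tcrg-C3: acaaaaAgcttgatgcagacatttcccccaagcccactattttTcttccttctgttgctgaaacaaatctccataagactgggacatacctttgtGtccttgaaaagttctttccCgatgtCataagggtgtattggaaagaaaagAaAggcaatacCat
Tcrg-C4: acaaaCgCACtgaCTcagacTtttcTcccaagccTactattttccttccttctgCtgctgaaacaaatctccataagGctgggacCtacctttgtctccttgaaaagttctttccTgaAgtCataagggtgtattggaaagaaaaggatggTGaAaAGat

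Within these 160 bases Tcrg-C2 differed from Tcrg-C1 at 4 positions, Tcrg-C3 at 8 and Tcrg-C4 at 20. Over the whole first coding exon of 330 bases, Tcrg-C2 and Tcrg-C3 were 97.3% and 96.1% identical to Tcrg-C1, and Tcrg-C4 was 82.1% identical. The 2 beta C regions were closer still. Their first coding exons of 375 bases differed at 1 base, which is the capital in the 61-base stretch below (chromosome 6, plus strand, 41538447 to 41538507 for Trbc1 and 41546959 to 41547019 for Trbc2).
Trbc1: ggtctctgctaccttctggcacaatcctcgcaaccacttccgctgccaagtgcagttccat
Trbc2: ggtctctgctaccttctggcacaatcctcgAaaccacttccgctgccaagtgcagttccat

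Of all 50-base windows in its transcript, Tcrg-C1 shared 29.6% with another C transcript, Trbc1 41.1% and Trbc2 44.0%, whereas Tcrg-C4, Trac (the alpha C region) and Trdc (the delta C region) shared 0.0%. The deposited values of Tcrg-C4, Trac and Trdc were whole numbers in 6 of 6 libraries, and those of Tcrg-C1, Tcrg-C2, Trbc1 and Trbc2 were whole in 0 of 6. The division of reads between Trbc1 and Trbc2, and between Tcrg-C1, Tcrg-C2 and Tcrg-C3, is therefore an estimate of the quantification, while the Tcrg-C4 values do not rest on reads divided in this way.

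The total expected count was 34557215 to 35131329 in the isotype control libraries and 30569351 to 32492849 in the DTA-1 libraries. Levels are given as CPM, the count scaled to the size of the library. A row listed at 0 could hold up to 3 counts, or 0.0854 to 0.0981 CPM depending on the library, a limit set by counting error alone. The library labelled DTA-1 replicate 1 stood apart from its group. Over the 14361 rows that passed the filter on low counts, its mean absolute difference in log2(CPM + 1) was 0.202 to 0.206 to each isotype control library, but 0.241 to replicate 2 and 0.243 to replicate 3 of its own group, while those 2 were 0.202 apart. Results are therefore given with and without this library. All 12 ILC2 markers examined, among them Gata3, Il1rl1 and Klrg1, had counts in the libraries, and their summed level was 12066 to 12521 CPM in isotype control and 12696 to 16861 CPM in DTA-1. Much of that sum was Il5, a type 2 cytokine, with means of 5325 and 8074 CPM. In the DTA-1 mean 7 of the 12 were lower, Gata3, Il1rl1 and Klrg1 among them, beside 51.9% of all rows tested. None was called with all 6 libraries, where 0% of all rows were called. Without DTA-1 replicate 1, Il5 and Areg (higher) and Icos (lower) were called, beside 0.744% of all rows tested in that fit.

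Most T cell receptor rows had no counts. Of the 270 rows, 209 were at 0 in all 6 libraries, 39 had 1 to 9 counts over the 6 libraries together, and 22 had at least 10. Only 11 passed the count filter and could be tested, so 259 were not tested. The counts of all 270 rows added up to 158944, and the 8 C rows held 156659 of these, or 98.56%. Tcrg-C1, Tcrg-C4, Trbc2 and Trbc1 alone held 156149 counts (98.24%). Transcripts of T cell receptor loci in these cells were thus almost wholly C-region counts of Trg and Trb.

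**Figure D1:**
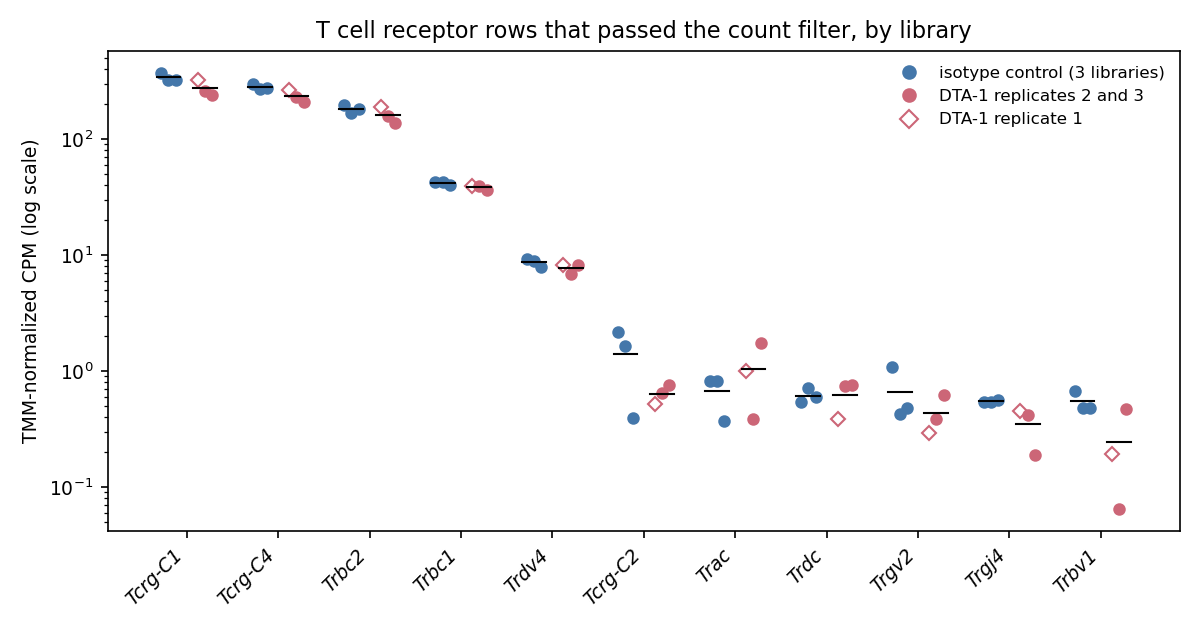
Level of the 11 T cell receptor rows that passed the count filter, as TMM-normalized CPM on a log axis, with 1 symbol per library and a black bar at each group mean (n = 3). Tcrg-C1, Tcrg-C4, Trbc2 and Trbc1 sat at 36.6 to 375 CPM and Trdv4 at 6.82 to 9.33 CPM, and the other 6 rows lay at or below 2.18 CPM in every library.

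Tcrg-C1 (chromosome 13, 19214103 to 19217024, plus strand), the C region of the first gamma cassette, had the highest count of all T cell receptor rows. Its expected counts were 13277, 11359 and 11395 under isotype control against 9957, 8090 and 7707 under DTA-1 (replicates 1, 2 and 3 in order, here and below). After normalization by trimmed mean of M values (TMM) these were 375, 324 and 323 CPM against 322, 259 and 242 CPM. The groups did not overlap, although DTA-1 replicate 1 lay just under the lowest isotype control library.

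Tcrg-C4 (chromosome 13, 19344558 to 19352756, plus strand), the C region at the other end of the locus, had 10593, 9489 and 9769 counts under isotype control against 8156, 7192 and 6661 under DTA-1. Its level was 299, 271 and 277 CPM against 264, 230 and 209 CPM. Again every DTA-1 library was below every isotype control library, and DTA-1 replicate 1 was the closest to the control. The count of Tcrg-C1 per count of Tcrg-C4 ranged only from 1.13 to 1.25 over the 6 libraries, and both groups lay within 1 SD of each other on this ratio (1.21 ± 0.0441 under isotype control against 1.17 ± 0.0488 under DTA-1, SD, n = 3).

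The other gamma C regions were nearly silent by comparison. Tcrg-C2 (chromosome 13, 19304649 to 19307551, minus strand) had 77, 58 and 14 counts under isotype control against 16, 20 and 24 under DTA-1. Isotype control replicates 1 and 2 stood above the other 4 libraries, and the third overlapped DTA-1. Tcrg-C3 had 7 counts over the 6 libraries together. Reads of Tcrg-C1 could be assigned in part to either, as the printed sequences show, so how much of either count came from its own cassette cannot be told.

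Trbc2 (chromosome 6, 41546730 to 41548352, plus strand), the C region of the second beta cluster, had 6924, 5879 and 6443 counts under isotype control against 5896, 4907 and 4428 under DTA-1. Its level of 196, 168 and 183 CPM in isotype control overlapped that of 191, 157 and 139 CPM in DTA-1, because DTA-1 replicate 1 ranked second of the 6 libraries. Trbc1 (chromosome 6, 41538218 to 41539881, plus strand), the C region of the first beta cluster, was at 42.5, 42.5 and 40.3 CPM under isotype control against 39.7, 39.1 and 36.6 CPM under DTA-1. These groups did not overlap but lay close together. Trbc2 counts were 3.79 to 4.81 times those of Trbc1 in every library.

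The partner chains were at the other end of the scale. Trac (chromosome 14, 54220521 to 54224206, plus strand), without which no αβ receptor can form, had 29, 29 and 13 counts under isotype control against 31, 12 and 56 under DTA-1. The 2 beta C rows together had 99.9 to 605 times as many counts as Trac. Trdc (chromosome 14, 54142851 to 54148868, plus strand), the C region that pairs with a gamma chain, had 19, 25 and 21 counts under isotype control against 12, 23 and 24 under DTA-1. In both rows the groups overlapped, and each library held fewer than 60 counts.

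Compared per length of exon, Tcrg-C1 stood at 333 CPM per kb as the mean over the 6 libraries (range 262 to 406), which ranked 111 of the 14069 rows with a length. Tcrg-C4 stood at 262 CPM per kb (212 to 304, rank 164) and Trbc2 at 249 CPM per kb (201 to 283, rank 173). For scale, Gata3, the transcription factor that defines ILC2s, was at 415 CPM per kb. Tcrg-C1 was above Tcrg-C4 in 6 of 6 libraries, by at most 1.34 times, whereas Tcrg-C4 was above Trbc2 in 5 of 6, by 0.972 to 1.13 times, so the latter pair was not separated beyond its spread. Trbc1 followed at 53.5 CPM per kb (rank 1156), below Trbc2 in 6 of 6 libraries by 4.11 to 5.21 times. Trac was at 0.920 CPM per kb and Trdc at 0.161 CPM per kb, with ranks of 10580 and 13291. Length is the union of all annotated exons, 924 bases for Tcrg-C1 but 3978 for Gata3, so these ranks depend on the annotation. In CPM not divided by length, the means were 341 and 274 for Tcrg-C1 against 1698 and 1603 for Gata3 (isotype control and DTA-1).

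**Figure D2:**
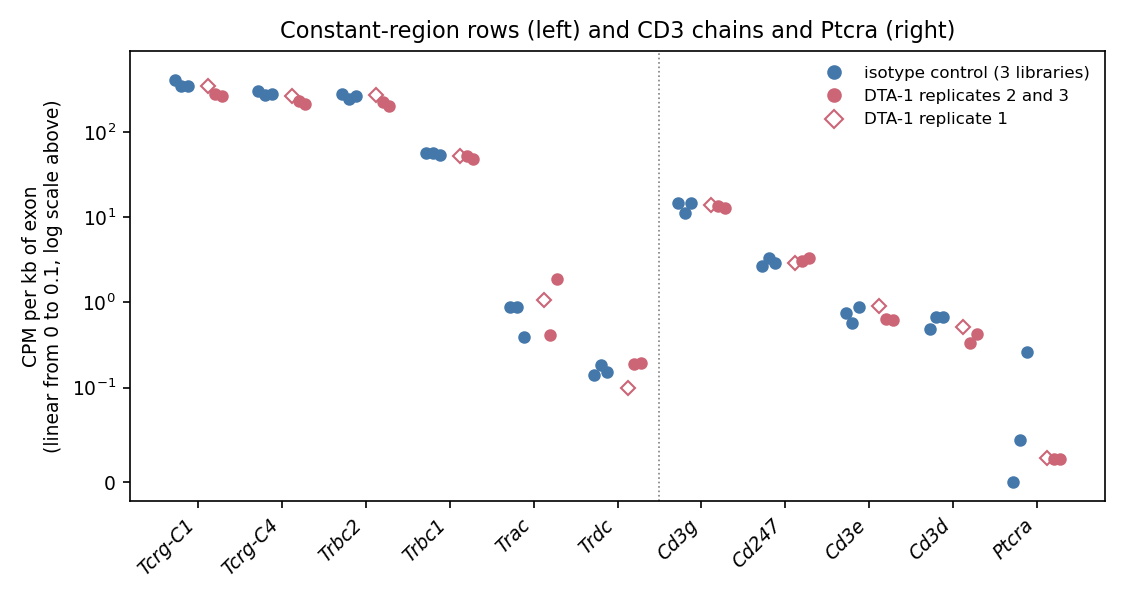
Level per kb of exon of 6 of the C rows (left of the dotted line) and of the CD3 chains and Ptcra (right), 1 symbol per library, on an axis that is linear up to 0.1 and logarithmic above. Tcrg-C1, Tcrg-C4, Trbc2 and Trbc1 lay between 48.9 and 406 CPM per kb, and Trac and Trdc lay at or below 1.88 CPM per kb in every library.

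A rearranged transcript would hold V and J sequence beside its C region. V counts were few beside the C counts in Trg and Trb, whereas in Tra and Trd, whose C rows were themselves near 0, they were not. In Trg, all 7 V rows had counts but together held 234, against 113861 for the 4 C rows. This was 1.38 to 2.99 V counts per 1000 C counts in a library. V rows are shorter (median 374 bases of exon) than the C rows (count-weighted mean 952 bases), and per base the summed V counts were 0.351% to 0.760% of the C counts. How the quantification treated reads that span a joint between V and J is not given in the sources used here, and such reads may be missing from these counts.

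The gamma V counts were spread over several segments. Trgv2 had the most, 111, with 38, 15 and 17 under isotype control against 9, 12 and 20 under DTA-1. Tcrg-V1, next to the Tcrg-C4 cassette, had 38, and Tcrg-V5, Tcrg-V4 and Tcrg-V7, upstream of Tcrg-C1, had 28, 25 and 22. Tcrg-V5 ranged from 1 to 12 counts over the libraries, and the 8 counts of Tcrg-V3 all came from DTA-1 replicate 2. Tcrg-V4 to Tcrg-V7 overlap an antisense gene, Gm31887, with 6 to 16 counts per library, and no source gives whether strand was used in counting, so the counts of the overlapping genes cannot be told apart.

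The gamma J rows had few counts too. Trgj4, just upstream of Tcrg-C4, had 91 counts, Trgj1, upstream of Tcrg-C1, had 36, Trgj2 had 5 and Trgj3 had 0. The J segments are printed because the same near-identity holds for them (chromosome 13, GRCm38, 5′ to 3′ on the transcript strand, with capitals where a base differs from Trgj1). Trgj1 is 19210343 to 19210402 (plus strand), Trgj2 is 19311245 to 19311304 (minus strand), Trgj3 is 19257117 to 19257176 (plus strand), and of Trgj4 the last 60 bases are given, 19342153 to 19342212 (plus strand).
Trgj1: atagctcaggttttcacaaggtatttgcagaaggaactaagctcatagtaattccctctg
Trgj2: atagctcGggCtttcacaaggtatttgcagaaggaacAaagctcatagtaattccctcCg
Trgj3: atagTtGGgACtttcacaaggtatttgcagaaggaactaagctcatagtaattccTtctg
Trgj4: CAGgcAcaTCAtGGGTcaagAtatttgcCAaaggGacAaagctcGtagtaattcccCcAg

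Trgj2 and Trgj3 differ from Trgj1 at 4 and 6 of these bases. Trgj4, which differs at 19 of 60, had the highest J count. Per kb of exon it stood at 7.39 CPM, above every V row of the locus. Gamma J rows are short, with a median of 60 bases of exon against 374 for the V rows. The place of Trgj4 above Trgv2 rests on the division by length, since by counts it had 91 against 111. The counts of Trgj4 were 19, 19 and 20 under isotype control against 14, 13 and 6 under DTA-1, so every DTA-1 library was lower. The summed gamma J counts were 31, 27 and 26 against 18, 17 and 13, and again did not overlap. Scaled to the C counts of the same library, they were 1.23 to 1.29 per 1000 in isotype control and 0.903 to 1.11 per 1000 in DTA-1, on totals of at most 31 counts.

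**Figure D3:**
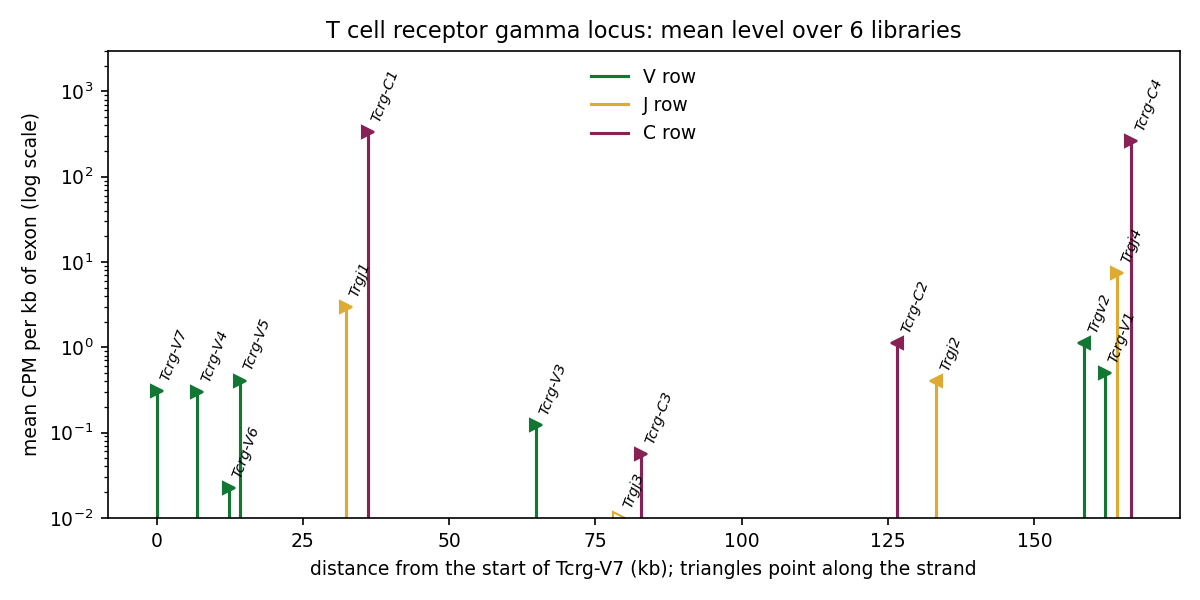
Mean level per kb of exon over the 6 libraries (log axis) of the 15 gamma rows against their distance from the start of Tcrg-V7, with triangles pointing along the strand and an open triangle for the row at 0. Tcrg-C1 and Tcrg-C4 stand at 333 and 262 CPM per kb, each with a J row of 2.97 or 7.39 CPM per kb just upstream, while the V rows stay at or below 1.12 CPM per kb. J rows are short (median 60 bases of exon against 374 for V rows), which weighs on their order per kb.

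Along the 174.7 kb of the gamma locus, the cassette of Tcrg-C1 thus held 77 V, 36 J and 61785 C counts, and that of Tcrg-C4 held 38 V, 91 J and 51860 C counts. The cassette of Tcrg-C2 held 111 V, 5 J and 209 C counts, and that of Tcrg-C3 held 8 V, 0 J and 7 C counts. The C counts were concentrated in the cassettes at the ends of the locus.

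In Trb, 11 of the 22 V rows had counts, 136 in all against 42504 for Trbc1 and Trbc2, or 1.55 to 5.18 per 1000 C counts. Trbv1, the first V segment of the locus, held 81 of them, with 24, 17 and 17 under isotype control against 6, 2 and 15 under DTA-1. Trbv19 and Trbv31 followed with 17 and 14, and no other beta V row reached 10. Trbv31 lies beyond the C regions on the opposite strand and had 0 to 7 counts per library. The 13 beta J rows held 12 counts, the 13 V pseudogenes 5 and the 2 D rows 0.

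In Tra, 24 of the 110 V rows had counts, 97 in all, and the highest was B230359F08Rik, a V row by its type that was placed in Tra by position, with 15. Trav7-5 and Trav12-1 had 13 and 12. Against the 170 counts of Trac this was 214 to 1083 V counts per 1000 C counts in a library, a ratio of small counts. The 51 alpha J rows, of which any rearranged alpha transcript would hold 1, were at 0 in every library, as were the 20 V and 9 J pseudogenes. J rows are short (median 61 bases of exon in Tra), and reads across a joint may be missing from the counts. A J row at 0 therefore cannot tell whether rearranged transcripts were present. No alpha row but Trac passed the count filter.

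Trd had 1 segment with a higher count. Trdv4 (chromosome 14, 54074905 to 54075515, plus strand) had 330, 310 and 276 counts under isotype control against 256, 213 and 260 under DTA-1, or 9.33, 8.84 and 7.82 CPM against 8.28, 6.82 and 8.16 CPM. It was the only V row of any locus with more than 111 counts, and the groups overlapped. Per kb of exon it stood at 18.5 CPM, above Trdc in every library, although Trdc lies 67.3 kb downstream and would be part of a rearranged transcript. Trdv4 overlaps the antisense gene Gm30275, which had 0 to 4 counts per library. The delta V rows together had 1669 counts against 124 for Trdc, or 9348 to 21917 per 1000 C counts. Trdv2-2 had 22 counts, 12 of them in isotype control replicate 1, and the delta D and J rows had 0.

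**Figure D4:**
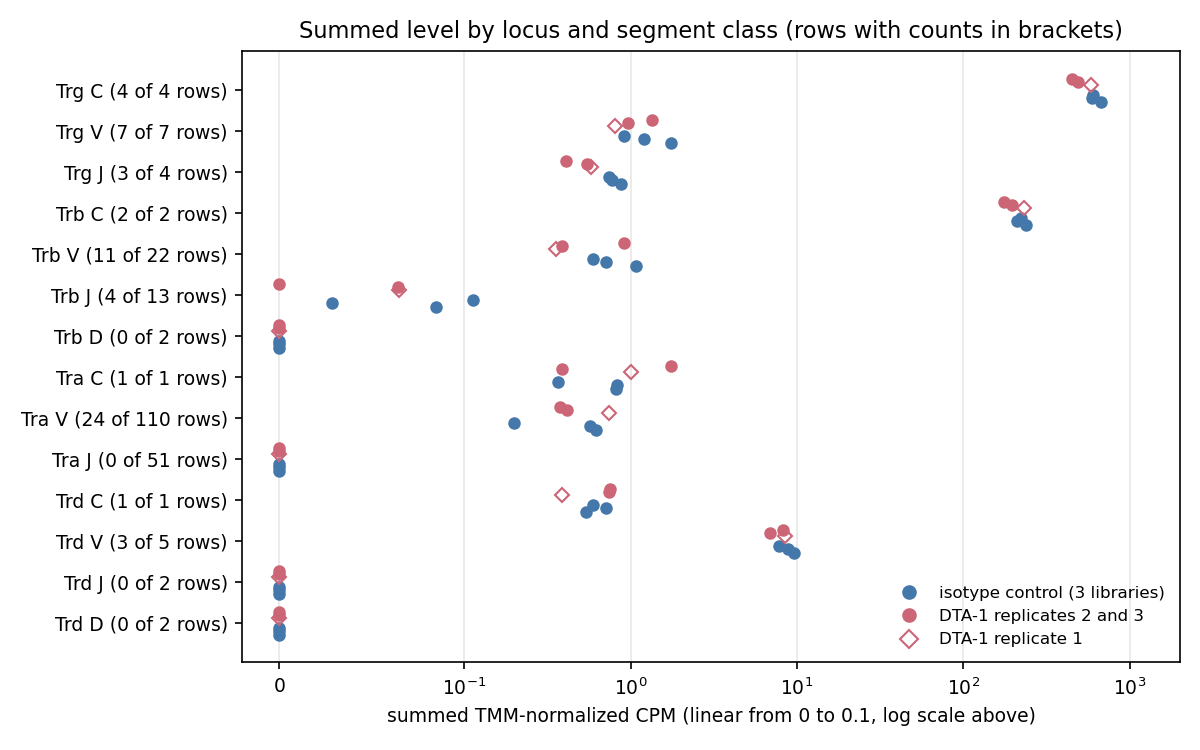
Summed TMM-normalized CPM of each locus and segment class, 1 symbol per library, on an axis that is linear up to 0.1 and logarithmic above, with the number of rows with counts in brackets. The C rows of Trg and Trb lay at 452 to 677 and 175 to 238 CPM, and the V and J sums of these loci lay at or below 1.75 CPM.

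For the groups compared, DTA-1 against isotype control, the question was whether engaging GITR went with a different level of these transcripts. In edgeR's quasi-likelihood fit, with p-values adjusted by Benjamini-Hochberg over all 14361 rows tested, 0 of the 11 T cell receptor rows were called at an adjusted p under 0.05 and at least a 1.5-fold difference, where 0% of all rows were called. At an unadjusted p under 0.05, 2 of the 11 passed, Tcrg-C1 and Tcrg-C4, both lower with DTA-1, beside 3.11% of all rows that were lower and 7.22% in either direction. DESeq2 gave 0 calls among these rows, beside 0.0990% of the rows to which it gave an adjusted p (0.114% at any fold), and the same 2 at an unadjusted p under 0.05, beside 4.88%.

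The log2 fold change of Tcrg-C1 was -0.31 (SE 0.10, edgeR adjusted p = 0.627), with a 95% confidence interval of -0.54 to -0.08. Its mean level was 341 ± 29.9 CPM under isotype control against 274 ± 42.3 CPM under DTA-1 (SD, n = 3). For Tcrg-C4 it was -0.27 (SE 0.09, edgeR adjusted p = 0.627), with means of 282 ± 15.2 and 234 ± 27.7 CPM. Neither difference passed the adjusted test with all 6 libraries.

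Tcrg-C1 had a log2 fold change of -0.44 with DTA-1 replicate 1 left out (edgeR adjusted p = 0.0243), and Tcrg-C4 then had -0.36 (edgeR adjusted p = 0.0391). With an adjusted p under 0.05 at any fold, 2 T cell receptor rows were then lower, beside 0.342% of the 14911 rows tested in that fit (1.70% in either direction), and 0 reached 1.5-fold, beside 0.744%. At an unadjusted p under 0.05, Trbc2 joined them, which made 3 lower rows beside 6.53%. Over all alternatives run, the adjusted p ranged from 0.0243 to 0.999 for Tcrg-C1 and from 0.0391 to 0.999 for Tcrg-C4, so both passed the adjusted test only with that library left out, and neither was called at 1.5-fold.

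The beta C rows were lower in the mean by less. Trbc2 had a log2 fold change of -0.17 (SE 0.11, edgeR adjusted p = 0.764) and Trbc1 of -0.12 (SE 0.09, edgeR adjusted p = 0.802), and without DTA-1 replicate 1 they were at -0.30 and -0.14 (edgeR adjusted p = 0.141 and 0.569). The counts of all gamma C rows per count of the beta C rows were 2.84, 2.84 and 2.69 under isotype control against 2.55, 2.5 and 2.57 under DTA-1. These groups did not overlap, DTA-1 replicate 1 included. This ratio was chosen after its values were seen and has no test.

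The rows with few counts were uncertain in either direction. Trdv4 had a log2 fold change of -0.16 (SE 0.18), and Trac of 0.64 (SE 0.60), with a 95% confidence interval of -0.69 to 1.97. For Trdc the value was 0.03 (SE 0.50), and its sign depended on the scaling (-0.02 with total counts and 0.03 with DESeq2 size factors). Tcrg-C2, Trgv2, Trgj4 and Trbv1 had values of -1.14, -0.60, -0.63 and -1.16, each with an interval that included 0.

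**Figure D5:**
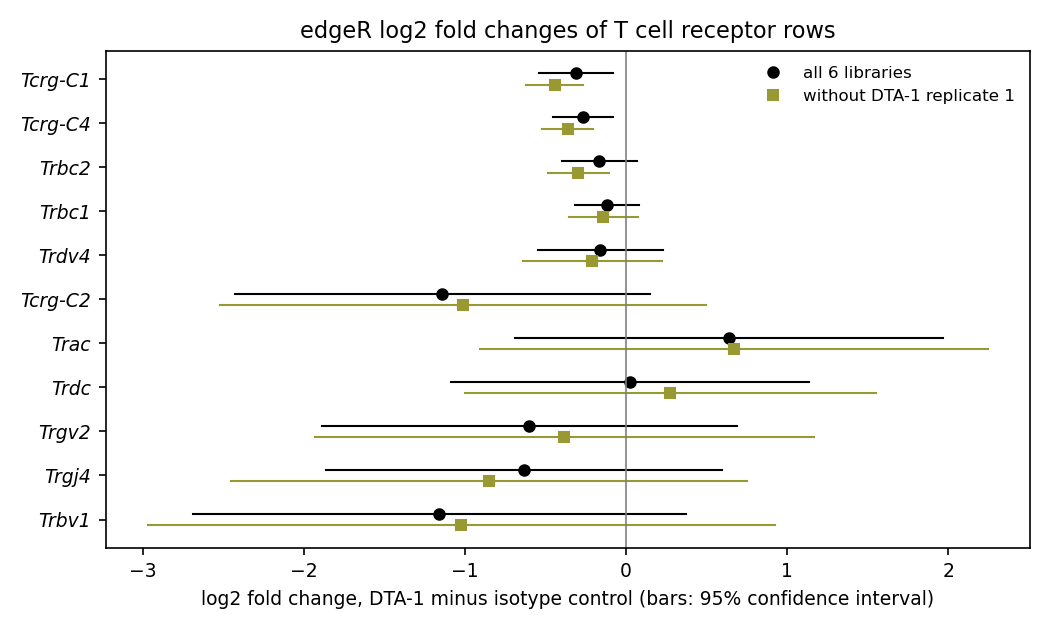
edgeR log2 fold changes (DTA-1 minus isotype control) of the 11 tested T cell receptor rows with 95% confidence intervals, from all 6 libraries (black circles) and without DTA-1 replicate 1 (olive squares). Tcrg-C1 and Tcrg-C4 lie at -0.31 and -0.27 with all libraries and at -0.44 and -0.36 without that library, and the rows with few counts have intervals wider than those of the 4 leading C rows.

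Of the 11 tested rows, 9 were lower in the DTA-1 mean and 2 higher, with a median log2 fold change of -0.27, whereas 51.9% of all rows tested were lower and their median was -0.01. In 5 of the 11, Tcrg-C1, Tcrg-C4, Trbc1, Trgj4 and Trbv1, every DTA-1 library lay below every isotype control library, beside 6.03% of all rows tested, and in 0 every DTA-1 library lay above, beside 5.26%. These rows are not independent of each other, since they share loci and, for Trbc1 and Tcrg-C1, divided reads. In bulk RNA, fewer cells with a transcript and less transcript per cell cannot be told apart.

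Summed over rows, the gamma C level was 624 ± 45.4 CPM under isotype control against 509 ± 69.5 CPM under DTA-1 (SD, n = 3), a log2 ratio of means of -0.29, and -0.41 without DTA-1 replicate 1. For the beta C rows the levels were 224 ± 14.1 and 201 ± 27.7 CPM, a ratio of -0.16. The gamma J sum was 0.794 ± 0.0728 against 0.512 ± 0.0918 CPM (-0.63), while the gamma V sum of 1.29 ± 0.430 and 1.04 ± 0.279 CPM (-0.31) differed by less than the SD of either group. The ratio for the beta V rows was -0.53, but 0.32 without Trbv1, so its direction rested on that row. These sums have no test.

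The genes next to the loci did not all lie on the same side. Stard3nl, a protein-coding gene beyond the Tcrg-C4 end of the gamma locus, had a log2 fold change of -0.08 (SE 0.09), and Amph, beyond the Tcrg-V7 end, of 0.04 (SE 0.18). Ephb6, beyond the C end of Trb, was at 0.30 (SE 0.14), and Dad1, beside Trac, at 0.13 (SE 0.07). None passed the adjusted test, which 0% of all rows passed, and these genes were chosen after values of the receptor rows were seen.

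Transcripts of the proteins that a T cell receptor needs at the cell surface were set beside it. Cd3g, a signalling chain of the CD3 complex, had 1720, 1270 and 1701 counts under isotype control against 1401, 1393 and 1323 under DTA-1. Cd247, the zeta chain, which also serves receptors of natural killer cells, had 507, 626 and 542 against 483, 510 and 562. Both had more counts than the remaining CD3 chains.

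Cd3e, the chain whose protein was excluded by the sort, had 109, 82 and 128 counts under isotype control against 115, 81 and 82 under DTA-1. Cd3d had 31, 43 and 43 against 29, 19 and 25. Per count of Cd3e there were 12.2 to 17.2 counts of Cd3g. Per kb of exon, Cd3g was at 13.5 CPM, Cd247 at 3.04, Cd3e at 0.733 and Cd3d at 0.519, all below Tcrg-C1, Tcrg-C4, Trbc2 and Trbc1. Tcrg-C2 (1.12) lay among these chains and Tcrg-C3 (0.0554) below all 4. Length is the union of all annotated exons, 3269 bases for Cd3g but 924 for Tcrg-C1, so this order depends on the annotation. In CPM not divided by length, the mean of Cd3g (44.4 under isotype control and 43.8 under DTA-1) was above that of Trbc1. The level of Ptcra, the surrogate alpha chain of thymocytes, rested on 17 counts, 12 of them in isotype control replicate 3.

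Of the 36 receptor partner genes listed (CD3 chains, coreceptors, proximal signalling, recombination and T lineage factors), 29 were tested and 0 called, where 0% of all rows were called. Of the 29, 16 were lower and 13 higher, beside 51.9% of all rows that were lower, with a median log2 fold change of -0.02. Lcp2, which encodes the adaptor SLP-76, had a log2 fold change of 0.17 (SE 0.07, edgeR adjusted p = 0.655), with an unadjusted p under 0.05. Levels of the 7 proximal signalling genes were uneven, with Zap70 at 74.3 and Lat at 59.8 CPM per kb but the kinase Lck at 4.30 and Themis at 0.0380 CPM per kb.

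The recombinase genes Rag1 and Rag2 were at 0 in all 6 libraries, and Dntt, the polymerase that adds bases at joints, had 1 count. The general end-joining genes of the same list, such as Xrcc5 and Xrcc6, were present at 16.6 and 14.2 CPM per kb. At this depth a 0 allows up to 0.0981 CPM, and the cells had been sorted from adult tissue, so these values describe the cultured cells only.

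Markers of T cells were measured beside the receptor rows. The summed level of 11 T cell markers was 218 to 255 CPM in isotype control and 237 to 256 CPM in DTA-1, and most of it was Bcl11b, which ILC2s also express. Cd8a was at 0 in every library, and Cd4, Cd5, Cd8b1 and Themis had at most 38 counts in any library. Cd6 had 0, 90 and 34 counts under isotype control against 71, 50 and 101 under DTA-1. Its log2 fold change was 1 (SE 0.90, edgeR adjusted p = 0.847), and the groups overlapped. Of the 8 T cell markers tested, 6 were lower in the DTA-1 mean and 2, Cd6 and Bcl11b, were higher, beside 51.9% of all rows that were lower. Of 5 markers of γδ and innate-like T cells, Blk and Cd163l1 were at 0, and the sum was 1.08 to 1.11 CPM in isotype control and 1.10 to 2.10 CPM in DTA-1. Foxp3, the factor of regulatory T cells, had 104, 89 and 100 counts against 66, 37 and 74 under DTA-1, with every DTA-1 library lower and a log2 fold change of -0.56 (SE 0.33, edgeR adjusted p = 0.744). Like the gamma C rows it was lower with DTA-1, and the part of T cells in the receptor values was not tested. None of the T cell markers was called, where 0% of all rows were called.

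DTA-1 replicate 3 had the highest Trac count (56) and also the highest Cd4 count (31), against 1 and 9 in the other DTA-1 libraries and 9 to 26 in isotype control. It was also the DTA-1 library with the most beta V counts, 29 against 11 and 12. The remaining T cell markers were split in this library. Cd6 (101 counts), Cd8b1 (3 counts) and Bcl11b were at their highest of the 6 libraries in CPM, and Foxp3 (74 counts) at its highest of the 3 DTA-1 libraries. By contrast, Cd5 (3 counts, as in DTA-1 replicate 2) and Themis (2 counts) were at their lowest of the 6 libraries in CPM. Cd3e and Cd3g were at their lowest of the 3 DTA-1 libraries, and Cd3d (25 counts) lay between its values in the rest of that group. Tcrg-C1 and Tcrg-C4 were lowest in this same library.

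Of the markers of other cells, Ms4a1 and Pax5 of B cells, Ncr1 and Klrb1c of natural killer cells, C1qb of macrophages and S100a8 and S100a9 of neutrophils were at 0 in every library. The summed B cell list stood at 16.7 to 17.4 CPM under isotype control against 17.2 to 18.2 CPM under DTA-1, nearly all of it Cd79b, and the macrophage list at 2.31 to 4.28 against 1.22 to 4.14 CPM. The natural killer, neutrophil and adipocyte lists reached at most 0.485, 0.769 and 0.454 CPM in any library. The 5 fibroblast markers summed to 2.20 to 8.31 CPM in isotype control and 0 to 3.98 CPM in DTA-1, and 4 of the 4 tested were lower in the DTA-1 mean, beside 51.9% of all rows. With all 6 libraries edgeR called none of them, where 0% of all rows were called. Col1a1 and Pdgfra passed in DESeq2 (adjusted p = 0.00423 and 0.00283) and in edgeR without DTA-1 replicate 1 (adjusted p = 0.0325 and 0.0481), the same fit in which Tcrg-C1 and Tcrg-C4 passed. The sum moved in the same direction as the gamma C rows, and its part in that difference was not tested. It was lowest, at 0, in DTA-1 replicate 1, the DTA-1 library with the highest Tcrg-C1 level.

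The immunoglobulin rows, the other V(D)J segments of the table, gave a picture with a single leading row. Of 427 such rows, 23 had counts (5.39%, against 22.6% of T cell receptor rows), and they held 2158 counts against 158944. Ighm, the mu C region, had 2038 of these, with 426, 320 and 337 under isotype control against 315, 330 and 310 under DTA-1. The immunoglobulin V rows had 95 counts. Those of the heavy chain locus alone stood at 17.8 to 65.6 per 1000 Ighm counts in a library. Summed immunoglobulin levels were 10.8 ± 1.51 CPM under isotype control against 10.8 ± 0.670 CPM under DTA-1 (SD, n = 3), a log2 ratio of means near 0, while all T cell receptor rows summed to 862 ± 60.1 and 722 ± 96.8 CPM, a ratio of -0.25.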

How the data were processed

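RNA-seq libraries (3 per group) were made by the authors from sorted ILC2s and sequenced on an Illumina NextSeq. The submitters' processing notes name bcl2fastq 2.17.1.14, STAR 2.5.3a, Partek and mm10, and the annotation, strand setting and treatment of reads with several matches are not given in the sources used here. The values deposited by the authors are expected counts (reads per gene as estimated by the software, not normalized), of which 83.1% were whole within 0.01. Total counts were 30569351 to 35131329 per library, and this depth sets the limit given for a count of 0.

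Values were rounded and fitted for all rows by the quasi-likelihood test of edgeR 4.0.16 under R 4.3.3, with robust dispersions, TMM scaling, the filterByExpr filter by group and no covariate. CPM are TMM-normalized, and lengths are union exon lengths of GENCODE M21, in which all 270 rows matched by symbol and start. Coordinates are those of GENCODE, and each deposited end is 1 base higher. Called rows had an adjusted p under 0.05 and at least a 1.5-fold difference. Alternatives were DESeq2 1.42.0, its size factors, total counts, limma-trend 3.58.1 (prior count 2), other filters (none, or at least 10 counts in every library), a replicate block and each library left out. An exact permutation test of 3 against 3 libraries cannot go below p = 0.10, so none was run. Tested on simulated data of 14111 genes, this fit recovered 163 of 200 with a 2-fold change, with 10 false calls. The simulation gave every gene the same dispersion (0.0256) and held no outlying library. It gives no recovery rate for changes under 2-fold. Python 3.11.15 (numpy 2.4.6, pandas 2.3.3, matplotlib 3.10.9) was used for summaries and figures.

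Named rows are all C rows, every other row that passed the filter, the leading rows of each locus and class with at least 10 counts, and the listed partner and marker genes, of which some are not reported here. Exceptions, chosen after their values were seen, are rows with fewer counts, the genes beside the loci and the overlapping antisense genes. The members and lists were chosen with earlier results of these data known.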

Additional observations from a re-analysis of the deposited data

How the results depend on the processing

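No T cell receptor row was called under any alternative run (edgeR with other scalings, filters or a replicate block, DESeq2, limma-trend, or each library left out). The count at an adjusted p under 0.05 at any fold was 0, and 0 to 2 with 1 library left out, the 2 being Tcrg-C1 and Tcrg-C4 without DTA-1 replicate 1. The count at an unadjusted p under 0.05 was 2, and 1 to 3 with 1 library left out, with 1 without isotype control replicate 1. The log2 fold change of Tcrg-C1 ranged from -0.44 to -0.23 and that of Tcrg-C4 from -0.36 to -0.19 with 1 library left out, and both passed the adjusted test only without DTA-1 replicate 1. The cause was not tested. Trdc, at 0.03, turned to -0.0164 with total counts, to -0.0196 with limma-trend and to -0.0155 with the replicate block, and ranged from -0.13 to 0.27 with 1 library left out. Signs also turned with 1 library left out for Cd3g (-0.144 to 0.0578), Cd3e (-0.22 to 0.13) and Cd247 (-0.00289 to 0.15). The summed beta V ratio of -0.53 was 0.32 without Trbv1, which held most of its counts.

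Deviations from the group means correlated at -0.007, -0.003 and 0.015 within a replicate number and at -0.014 to 0.016 between numbers. This showed no pairing by number, but a correlation over all rows that passed the filter cannot exclude it for single rows. With the number as a block, 0 T cell receptor rows were called and 2 were at an unadjusted p under 0.05. The SE then fell for Tcrg-C1 (0.104 to 0.0649) and Tcrg-C4 (0.0855 to 0.0681), but rose for Tcrg-C2 (0.586 to 0.659) and Trac (0.604 to 0.719). Depth limits the V, D and J rows most, with at most 38 counts in any library for each except Trdv4.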
